A study of Rattus norvegicus with 30 samples.

Results

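Nitric oxide, natriuretic peptide and cGMP signalling was followed through 9 genes in RNA from CD31-positive cells of the rat lung. The genes were taken by name from the deposited table, and all 9 were found among its 30562 rows and among the 16171 genes with enough reads to test. Nos3 is the endothelial nitric oxide synthase and Nostrin its trafficking partner. Gucy1a1 and Gucy1b1 are the subunits of soluble guanylate cyclase. Npr1, Npr2 and Npr3 are the natriuretic peptide receptors, Pde5a is a cGMP phosphodiesterase and Prkg1 is a cGMP-dependent protein kinase. The animals were wild-type rats that had undergone a Glenn or a sham operation. The Glenn operation joins a caval vein to a pulmonary artery, which sends upper-body venous blood into the lung and keeps out blood returning from the liver. After surgery the rats ate a diet with control, deficient or excess vitamin A, and cells were collected by CD31 microbeads at 3 weeks. The 6 groups of 5 libraries each were the sham and Glenn groups on each of the 3 diets, and their cells are called sham cells and Glenn cells here. The labels do not say whether the libraries of a group came from separate animals, so p-values measure the spread between these libraries.

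Library totals ranged from 22 to 77.6 M estimated counts, with a median of 40.0 M. The library numbers fall into a series of 22 and a series of 8, and 3 groups (control diet after either surgery, excess diet after sham surgery) belong to the first series alone. The major histocompatibility gene RT1-CE16 split the libraries into 17 low ones (21.9 to 44.2 CPM) and 13 high ones (407 to 945 CPM), and all sham libraries on the excess diet were low. All libraries of the series of 8 were high. In both deficient groups and the Glenn excess group, RT1-CE16 level and series split the libraries alike. Differences by RT1-CE16 level therefore cannot be fully told apart from the series. Endothelial markers such as Pecam1 and Cdh5 were abundant, and the 8 endothelial markers summed to between 6330 and 10700 CPM in every library. Markers of alveolar type 2 cells were abundant too: the 6 listed genes, Sftpc and Sftpb among them, summed to between 24700 and 59900 CPM. The 10 mural markers, genes of smooth muscle cells and pericytes, summed to between 180 and 372 CPM in sham libraries and between 542 and 1850 CPM in Glenn libraries. CPM are counts per 1 M after TMM scaling, and they are compared here between libraries for 1 gene and not between genes.

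Nitric oxide made by endothelial cells diffuses into neighbouring smooth muscle and binds soluble guanylate cyclase, which then makes cGMP. Atrial and brain natriuretic peptides act through Npr1 and C-type natriuretic peptide through Npr2, both of which carry a guanylate cyclase domain, whereas Npr3 lacks that domain and mainly clears the peptides. cGMP activates protein kinase G, which relaxes vascular smooth muscle, and phosphodiesterases such as Pde5a break cGMP down; in the lung circulation this route lowers vascular tone and is a drug target in pulmonary hypertension.

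Promoter sequences are shown for Nos3 and Prkg1, which were higher after the Glenn operation on each of the 3 diets. They come from the RefSeq promoter table of build GRCr8, read 5′ to 3′ on the gene's strand, and hold the 250 bases before the start site in that table. The Nos3 window is chr4:11706582-11706831 and the Prkg1 window is chr1:239052185-239052434, both on the minus strand. Capitals mark matches on either strand to CACCC, the core bound by Krüppel-like factors, or GGAAG, a core of ETS factor sites. The last 23 bases of the Nos3 window lie inside the RefSeq gene span.
Nos3: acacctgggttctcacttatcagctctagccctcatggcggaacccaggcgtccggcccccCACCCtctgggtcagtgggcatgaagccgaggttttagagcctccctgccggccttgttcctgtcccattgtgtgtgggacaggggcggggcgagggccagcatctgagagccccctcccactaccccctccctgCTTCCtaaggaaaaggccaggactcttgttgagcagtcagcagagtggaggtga
Prkg1: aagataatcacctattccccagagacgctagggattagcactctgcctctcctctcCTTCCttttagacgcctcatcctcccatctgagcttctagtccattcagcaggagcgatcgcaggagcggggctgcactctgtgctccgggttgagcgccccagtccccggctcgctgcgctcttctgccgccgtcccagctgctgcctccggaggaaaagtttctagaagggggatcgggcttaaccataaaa
The Nos3 window held CACCC at 189 bases and GGAAG, read as CTTCC, at 54 bases before the start. The Prkg1 window held GGAAG, also read as CTTCC, at 194 bases before the start, and no CACCC. Promoters of 7 of the 9 genes were in the table, and Nostrin and Npr2 were not matched. All 250 bases of the Gucy1a1, Npr1, Npr3 and Pde5a windows lie inside the RefSeq gene span, as do 73 bases of the Gucy1b1 window. GGAAG was found in 7 of these 7 windows, against 63.3% of 33469 promoters of the same length, and CACCC in 4 of 7, against 49.2%. The hypoxia response core ACGTG was in 0 of the 7 windows and in 16.6% of all promoters. The same 0 of 7 held for the BMP-SMAD element GGCGCC (8.69% of all promoters) and the SMAD box GTCTAGAC (0.173%). It held too for the cyclic AMP response element TGACGTCA (1.59%) and the retinoid receptor core AGGTCA (14.1%). A match describes the letters of the window and is not evidence of binding.

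Glenn cells had more Nos3 and Prkg1 RNA and less Npr1 and Nostrin RNA than sham cells on each diet. Averaged over the diets, Nos3 was 1.88-fold and Prkg1 2.27-fold higher, whereas Npr1 was 1.60-fold and Nostrin 1.80-fold lower. On the control diet 4 of the 9 genes passed the edgeR quasi-likelihood test at an adjusted p under 0.05, where 24.9% of all tested genes did. The same 4 genes passed on the deficient diet, where 27.4% of all genes did, and on the excess diet, where 21.9% did. With the 3 diets averaged, Gucy1b1 joined them, giving 5 of 9, where 48.2% of all genes were called; 3 were higher, against 23.4% of all genes, and 2 lower, against 24.7%. The median log2 change of the 9 genes in the averaged comparison was 0.12, against -0.01 over all tested genes. In bulk RNA of sorted cells, fewer cells of a type and less RNA per cell cannot be told apart. The comparisons within each diet do not share libraries with one another, and the averaged comparison contains them all.

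**Figure D1:**
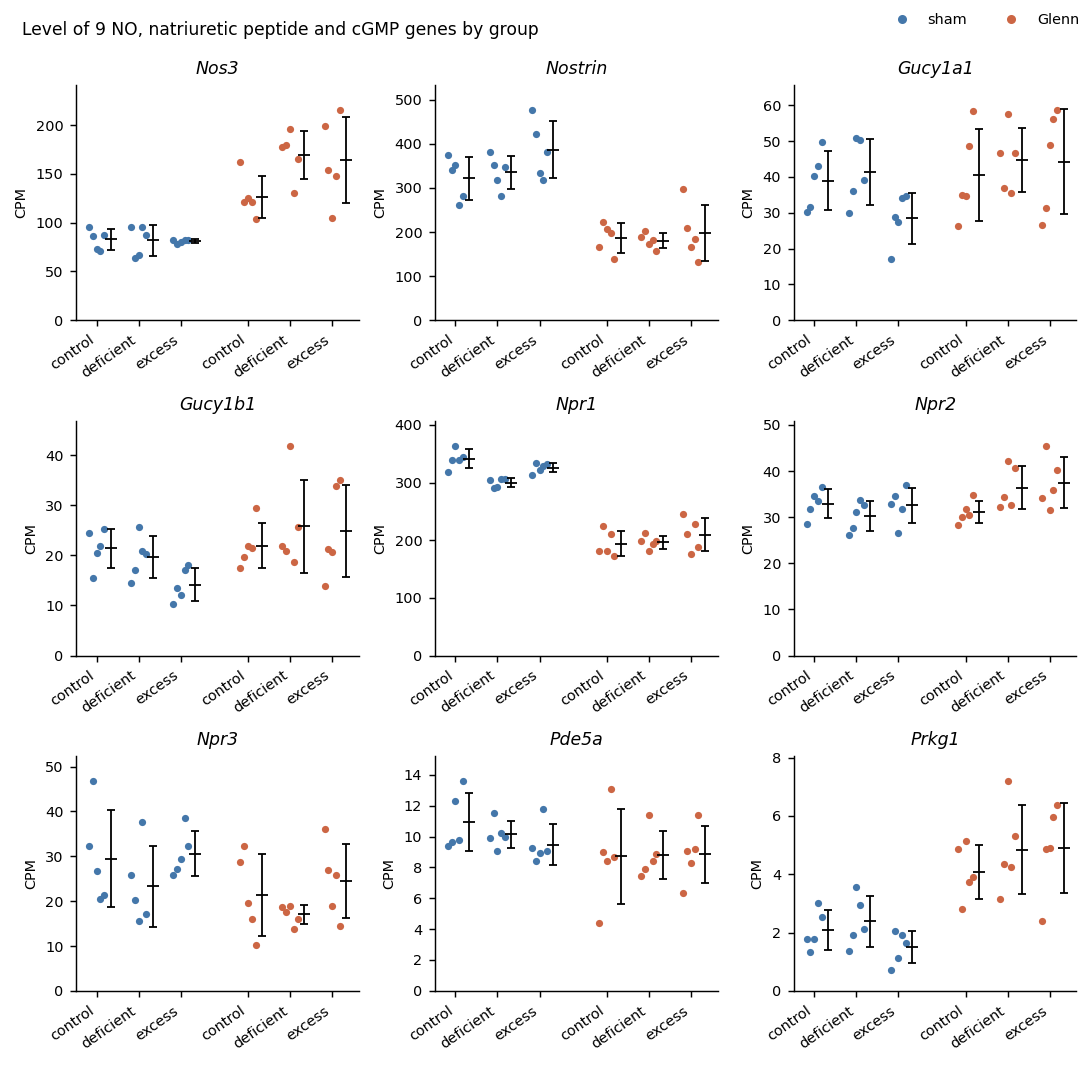
Level of each of the 9 genes in CPM (vertical axes, from 0) in the 6 groups, with sham groups in blue and Glenn groups in orange; each point is 1 library and the bars show the mean ± SD of 5 libraries. The Nos3 points of the Glenn groups all lie above those of the sham groups, and the Npr1 points all lie below.

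Nos3 (ENSRNOG00000009348) makes nitric oxide from arginine in endothelial cells. Its level in the sham libraries on the control diet was 95.5, 86.7, 73.4, 70.6 and 87.4 CPM, and in the Glenn libraries on that diet 162, 121, 125, 121 and 104 CPM. On the deficient diet the sham libraries had 95.5, 63.6, 66.6, 95.7 and 87.3 CPM and the Glenn libraries 177, 180, 196, 130 and 165 CPM. Excess-diet values were 82.5, 78.1, 80.6, 82.4 and 82.0 CPM after sham surgery and 199, 154, 105, 148 and 215 CPM after the Glenn operation. Every one of the 15 Glenn libraries thus lay above every one of the 15 sham libraries, a separation that 5.83% of all tested genes showed in one direction or the other. Mean levels were 81.9 ± 10.1 CPM (SD, n = 15) in sham and 154 ± 35.2 CPM (SD, n = 15) in Glenn cells. The log2 change was 0.61 (SE 0.149; edgeR adjusted p = 0.00268) on the control diet, 1.02 (SE 0.153; adjusted p = 9.58e-06) on the deficient diet and 1.10 (SE 0.165; adjusted p = 1.12e-05) on the excess diet. Averaged over diets it was 0.91 (SE 0.0872; edgeR adjusted p = 1.07e-09). Ordered by mean, the 3 sham groups stood at 81.1 ± 1.85, 81.7 ± 15.6 and 82.7 ± 10.4 CPM (SD, n = 5 each) and could not be separated. Above them came the Glenn groups on the control diet (127 ± 21.6), the excess diet (164 ± 43.5) and the deficient diet (170 ± 24.7), and the last pair overlapped within 1 SD. The 3′ end of Nos3 overlaps Atg9b on the opposite strand by 10 bases in RefSeq, and whether the counting used strand is not given in the sources used here; Atg9b had 3 to 55 counts per library and Nos3 2121 to 9584.

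Nostrin (ENSRNOG00000006611) binds Nos3 and moves it from the plasma membrane to internal vesicles. Sham libraries had 375, 340, 353, 262 and 281 CPM on the control diet, where Glenn libraries had 167, 223, 208, 197 and 139 CPM. On the deficient diet the levels were 381, 352, 317, 281 and 347 CPM in sham and 189, 202, 172, 182 and 158 CPM in Glenn libraries. On the excess diet they were 476, 423, 334, 319 and 382 CPM in sham and 298, 209, 166, 184 and 131 CPM in Glenn libraries. Within each diet all 5 Glenn libraries lay below all 5 sham libraries, where 17.2%, 19.6% and 16.3% of all genes did not overlap (control, deficient and excess diet in turn), and over the 3 diets 14 of 15 did, the exception being Glenn replicate 1 on the excess diet at 298 CPM. Nostrin RNA fell from 348 ± 55.9 CPM (SD, n = 15) in sham to 188 ± 39.9 CPM (SD, n = 15) in Glenn cells. The log2 change was -0.79 (SE 0.14; edgeR adjusted p = 8.32e-05), -0.96 (SE 0.142; adjusted p = 6.57e-06) and -0.79 (SE 0.154; adjusted p = 0.000331) on the control, deficient and excess diets. The averaged change was -0.85 (SE 0.0822; edgeR adjusted p = 1.1e-09). On the excess diet the call was lost when only the 2 groups compared were fitted (log2 change -0.60, edgeR adjusted p = 0.0535, the highest of 11 settings that began at 1e-05). RT1-CE16 level moved with this gene: low libraries had a log2 level 0.31 above high ones within groups (edgeR adjusted p = 0.0251), where 6.53% of all genes differed. All 3 calls stood in the fit that had RT1-CE16 level as a term. The 3 sham groups stood highest, at 322 ± 48.7, 336 ± 38.0 and 387 ± 64.7 CPM on the control, deficient and excess diets (SD, n = 5 each), and the 3 Glenn groups lowest, at 187 ± 33.5, 181 ± 16.5 and 198 ± 63.2 CPM. In order of level, neighbouring Glenn means differed by less than the SD of either group, as did the control and deficient sham means. The excess sham mean lay above the deficient one by more than the SD of the deficient group, and the libraries of those groups overlapped.

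Soluble guanylate cyclase, the receptor of nitric oxide, needs an alpha and a beta subunit; Gucy1a1 and Gucy1b1 encode one of each and lie beside each other on chromosome 2 with 0 protein-coding genes between them in GRCr8. Gucy1b1 (ENSRNOG00000012060) stood at 24.4, 15.4, 20.4, 21.9 and 25.2 CPM in sham libraries on the control diet and at 17.5, 19.7, 21.8, 21.4 and 29.4 CPM in the Glenn libraries. Deficient-diet libraries had 14.4, 17.1, 25.6, 20.9 and 20.2 CPM in the sham and 21.8, 20.9, 41.9, 18.7 and 25.6 CPM in the Glenn group. On the excess diet the sham libraries had 10.2, 13.4, 12.0, 17 and 18 CPM and the Glenn libraries 13.8, 21.3, 20.6, 33.8 and 35.1 CPM. The groups overlapped on all 3 diets, least on the excess diet, where 4 of 5 Glenn libraries lay above every sham library. The log2 changes of 0.03, 0.49 and 0.61 on the control, deficient and excess diets did not pass (edgeR adjusted p = 0.939, 0.125 and 0.0995), while the averaged change of 0.38 did (SE 0.132; edgeR adjusted p = 0.0199). That call rested on Glenn replicate 3 on the deficient diet, the library at 41.9 CPM: without it the averaged change was 0.26 (edgeR adjusted p = 0.0588). When the 17 libraries low in RT1-CE16 were fitted alone it was 0.39 (edgeR adjusted p = 0.111), and over 10 settings the adjusted p ran from 0.00456 to 0.111. On the excess diet the change passed without the series term (0.82, edgeR adjusted p = 0.00944, the lowest of 11 settings that reached 0.53), with limma voom (0.044), with a replicate block (0.00971) and without Glenn excess replicate 1 (0.0289). On the deficient diet it passed without Glenn deficient replicate 4 (edgeR adjusted p = 0.0348). Glenn replicate 3 on the deficient diet also had the highest summed mural markers of the 30 libraries, 1850 CPM. Gucy1a1 (ENSRNOG00000012302) had 36.3 ± 9.55 CPM (SD, n = 15) in sham and 43.2 ± 11.6 CPM in Glenn libraries, ranging from 17.2 to 58.6 CPM, and its averaged log2 change of 0.22 did not pass (SE 0.128; edgeR adjusted p = 0.169). Its changes by diet were 0.06, 0.24 and 0.35, and the groups overlapped on each diet. The excess-diet change ran from 0.04 to 0.70 over 11 settings (adjusted p from 0.00977 to 0.96) and passed in 2 of them, without the series term (0.64, edgeR adjusted p = 0.0429) and with a replicate block (0.70, 0.00977); the averaged change passed with the block as well (0.29, 0.0135). RT1-CE16-low libraries had less Gucy1a1 RNA within groups (log2 difference -0.50, edgeR adjusted p = 0.0099). This came from a fit without the series term and cannot be fully told apart from the series.

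Npr1 (ENSRNOG00000014684), the receptor for atrial and brain natriuretic peptides, was lower in every Glenn library than in any sham library. Sham libraries on the control diet had 319, 339, 364, 340 and 345 CPM and Glenn libraries 181, 224, 181, 210 and 173 CPM. On the deficient diet sham libraries had 304, 290, 293, 306 and 306 CPM and Glenn libraries 199, 212, 181, 193 and 199 CPM. The excess diet gave 314, 334, 321, 328 and 332 CPM in the sham and 245, 210, 176, 229 and 188 CPM in the Glenn group. All 15 Glenn libraries lay below all 15 sham libraries, the nearest pair being 245 and 290 CPM. Of all tested genes 5.83% showed such a separation in one direction or the other. Npr1 RNA fell from 322 ± 20.5 CPM (SD, n = 15) to 200 ± 21.3 CPM (SD, n = 15), and the averaged log2 change was -0.68 (SE 0.0441; edgeR adjusted p = 1.59e-13). By diet the change was -0.81 (SE 0.0752; edgeR adjusted p = 1.58e-09) on the control, -0.62 (SE 0.0761; adjusted p = 2.67e-07) on the deficient and -0.60 (SE 0.0835; adjusted p = 3.18e-06) on the excess diet. The sham groups stood at 341 ± 16.2, 300 ± 7.72 and 326 ± 8.25 CPM on the control, deficient and excess diets (SD, n = 5 each), and the Glenn groups at 194 ± 21.8, 197 ± 11.1 and 210 ± 28.4 CPM. All 5 deficient sham libraries lay below all 5 control and all 5 excess ones, a separation that 0.538% and 1.72% of all genes showed in those comparisons. The fitted log2 differences, deficient minus control and excess minus deficient, were -0.15 and 0.08 (edgeR adjusted p = 0.985 and 1), and edgeR called 0 of the diet differences in Npr1. The Glenn groups overlapped between diets.

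Npr2 (ENSRNOG00000015991), the receptor for C-type natriuretic peptide, had 31.9 ± 3.41 CPM (SD, n = 15) in sham and 35 ± 4.98 CPM (SD, n = 15) in Glenn libraries. Its log2 changes of -0.08, 0.28 and 0.18 on the control, deficient and excess diets did not pass (edgeR adjusted p = 0.618, 0.0522 and 0.294), and neither did the average of 0.12 (SE 0.0607; adjusted p = 0.0938). On the deficient diet, where the test came nearest to the threshold, sham libraries had 26.1, 27.6, 31.2, 33.8 and 32.7 CPM and Glenn libraries 32.3, 34.4, 42.2, 32.6 and 40.6 CPM, with 3 of 5 Glenn libraries above every sham library. There the call depended on the fit: it passed in 6 of 12 settings (adjusted p from 0.0331 to 0.434, log2 change from 0.17 to 0.44) and when sham replicate 4 or Glenn replicate 1 or 4 on that diet was left out (edgeR adjusted p = 0.0396, 0.0387 and 0.0305). The averaged Npr2 change passed in 3 of 10 settings (adjusted p from 0.019 to 0.114) and without Glenn excess replicate 3 (0.0499). Npr3 (ENSRNOG00000019184), the clearance receptor, had 27.8 ± 8.62 CPM (SD, n = 15) in sham and 21.0 ± 7.38 CPM (SD, n = 15) in Glenn libraries. Its averaged log2 change of -0.38 lay just outside the threshold (SE 0.16; edgeR adjusted p = 0.0501), and the groups overlapped on each diet. The call depended on the fit: with no term for the series the adjusted p was 0.0375, with RT1-CE16 level as the term 0.0131 and with limma voom 0.0294, and over 10 settings it ran from 0.0131 to 0.364. It also passed when any 1 of 9 libraries was left out (edgeR adjusted p from 0.0207 to 0.0481): sham control 4 and 5, sham deficient 2, 3 and 5, sham excess 1, Glenn control 1 and 2, and Glenn excess 1. Npr3 varied widely within groups, from 20.4 to 46.8 CPM in sham and from 10.2 to 32.3 CPM in Glenn libraries on the control diet. RT1-CE16-low libraries had more Npr3 RNA within groups (log2 difference 0.56, edgeR adjusted p = 0.0225). This too came from a fit without the series term and cannot be fully told apart from the series.

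Prkg1 (ENSRNOG00000053728), a cGMP-dependent kinase of smooth muscle and other cells, had 35 to 275 counts per library. Its levels on the control diet were 1.77, 1.33, 1.77, 3.03 and 2.52 CPM in sham and 4.85, 2.82, 5.14, 3.72 and 3.89 CPM in Glenn libraries. Deficient-diet libraries had 1.37, 1.92, 3.58, 2.94 and 2.13 CPM in the sham and 3.14, 4.34, 7.2, 4.24 and 5.30 CPM in the Glenn group. Excess-diet libraries had 0.723, 2.06, 1.14, 1.93 and 1.64 CPM in the sham and 2.39, 4.88, 4.90, 5.97 and 6.39 CPM in the Glenn group. The groups did not overlap on the excess diet, where 16.3% of all genes did not. On each of the other diets 1 of 5 Glenn libraries fell within the sham range. Prkg1 RNA rose from 1.99 ± 0.765 CPM (SD, n = 15) to 4.61 ± 1.32 CPM (SD, n = 15), and the log2 changes were 0.97 (SE 0.285; edgeR adjusted p = 0.0119), 1.17 (SE 0.296; adjusted p = 0.00338) and 1.40 (SE 0.323; adjusted p = 0.00189) on the control, deficient and excess diets. The averaged change was 1.18 (SE 0.167; edgeR adjusted p = 9.12e-07). Mural markers moved the same way: 10 of 10 were higher in Glenn cells in the averaged comparison, with a median log2 change of 1.68, and Acta2 went from 31.4 to 126 CPM and Myh11 from 57.8 to 230 CPM on average. None of the 10 was at 0 in any group, and their part in the Prkg1 and Gucy1b1 differences was not tested. Pde5a (ENSRNOG00000014443), which breaks down cGMP and is the target of sildenafil, had 10.2 ± 1.46 CPM (SD, n = 15) in sham and 8.79 ± 2.10 CPM (SD, n = 15) in Glenn libraries. Its changes of -0.33, -0.19 and -0.13 by diet and -0.22 averaged did not pass (edgeR adjusted p = 0.223, 0.501, 0.728 and 0.112); without Glenn control replicate 4 the averaged change was -0.27 and passed (0.0344). Sham libraries ranged from 8.39 to 13.6 CPM and Glenn libraries from 4.38 to 13.1 CPM, so that they overlapped.

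**Figure D2:**
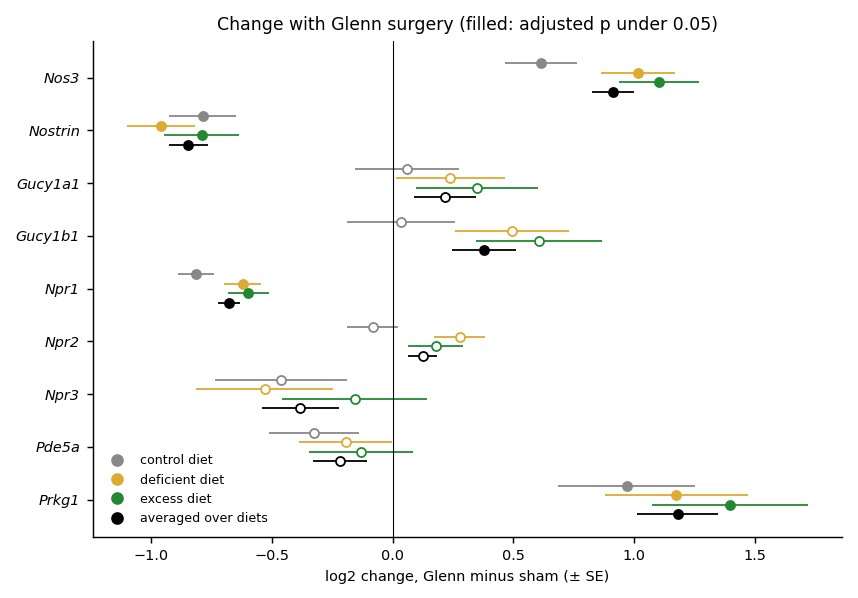
Fitted log2 change from sham to Glenn (horizontal axis, ± SE) for the 9 genes on each diet and averaged over diets; filled points passed the edgeR test at an adjusted p under 0.05. Nos3 and Prkg1 lie to the right of 0 and Nostrin and Npr1 to the left on every diet, while Npr2, Npr3, Pde5a and Gucy1a1 have open points throughout.

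Within 1 series or 1 level of RT1-CE16 the averaged changes kept their direction. In the 22 libraries of the larger series the log2 changes were 0.99 for Nos3, -0.78 for Nostrin, -0.63 for Npr1 and 1.28 for Prkg1. The 17 RT1-CE16-low libraries, all from that series, gave 0.98, -0.80, -0.61 and 1.45, and edgeR called each of these values. On the deficient and excess diets both subsets hold the same libraries, so they are not separate checks. On the control diet alone the Prkg1 change in the RT1-CE16-low libraries was 1.48 with an edgeR adjusted p of 0.0628. The series of 8 holds 5 libraries of the deficient diet and 3 Glenn libraries of the excess diet and was not fitted alone. The 13 RT1-CE16-high libraries allow the control and deficient diets only. There the Nos3 change was 0.55 on the control diet (edgeR adjusted p = 0.164) and 0.83 on the deficient diet (adjusted p = 0.0407), and that of Prkg1 0.64 (adjusted p = 0.141) and 0.72 (adjusted p = 0.101). Nostrin (-0.82 and -0.89) and Npr1 (-0.86 and -0.62) passed on both diets in these libraries. Over 12 settings on the control diet the edgeR, voom or DESeq2 adjusted p ran from 0.000222 to 0.164 for Nos3 and from 0.00365 to 0.141 for Prkg1.

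Residual levels of the 9 genes were set beside cell markers and the rest of the table. After the group means and the series were taken out, Gucy1b1 had a Pearson correlation of 0.86 with the mean of the 10 mural markers over the 30 libraries (Spearman 0.792), and 0.78 without the 2 libraries farthest from the median. The corresponding values were 0.58 and 0.46 for Gucy1a1 and 0.55 and 0.37 for Prkg1. Pde5a had 0.34 with the same markers and 0.14 without the 2 libraries, and Nos3 had 0.17 and 0.22. Npr2 had 0.395 and 0.27, Npr3 -0.144 and -0.105, Npr1 -0.36 and -0.137, and Nostrin -0.449 and -0.313. With the 8 endothelial markers Npr1 had a correlation of 0.65 (0.59 without the 2 farthest libraries) and Nos3 0.49 (0.35). Nos3 had 0.57 (0.50) with the 7 arterial markers and -0.52 (-0.58) with the 6 alveolar type 2 markers. With the venous markers it had 0.46 (0.44), and with the type 1 alveolar markers -0.30 (-0.63). These values are descriptions over libraries that share depth and composition, and no test was attached to them. The genes most alike in the same residual pattern, of 12720 ranked, were Pdgfrb, Axl and Heyl for Gucy1b1 (0.93, 0.91 and 0.90) and Pcdh18, Abr and Gucy1b1 for Gucy1a1 (0.88, 0.80 and 0.80). For Prkg1 they were Myo1d, Rbm24 and Drosha (0.82, 0.77 and 0.76). For Nos3 they were Kcnn4, Ccdc124 and Rgs3 (0.81, 0.79 and 0.79), for Nostrin Degs1, C2h1orf54 and Ak6 (0.91, 0.82 and 0.78), and for Npr1 Ccrl2, Sh3tc2 and Daglb (0.82, 0.81 and 0.78). Npr2 was nearest to Slc39a6, Ptp4a3 and Mlst8 (0.73, 0.72 and 0.71), Npr3 to Tmem26, Fgd5 and Coro2b (0.80, 0.79 and 0.78) and Pde5a to Cys1, Adap2 and Crip1 (0.84, 0.79 and 0.78). Between the 9 genes, Gucy1b1 and Prkg1 had a correlation of 0.71, whereas Nos3 and Nostrin had one of -0.00254.

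**Figure D3:**
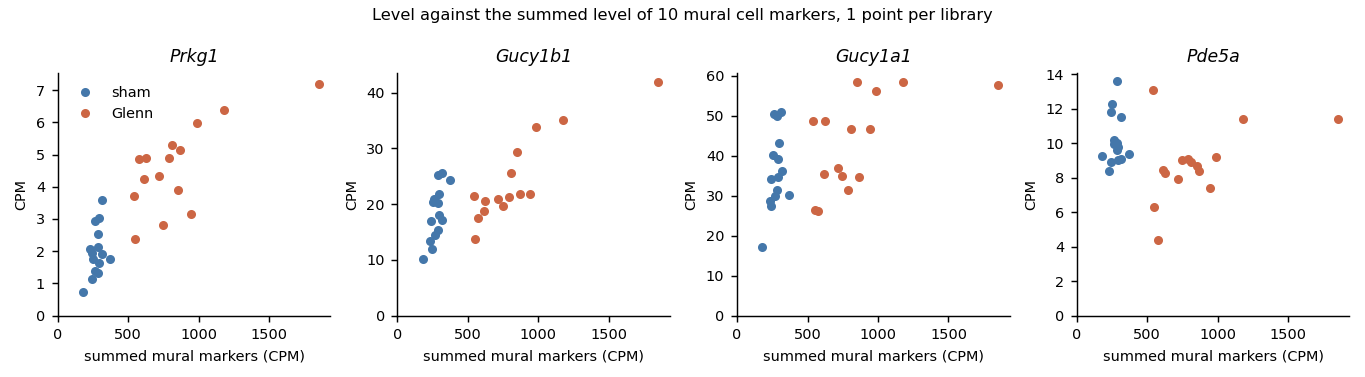
Level of Prkg1, Gucy1b1, Gucy1a1 and Pde5a in CPM (vertical axes) against the summed level of 10 mural markers in CPM (horizontal axes), with 1 point per library, sham in blue and Glenn in orange. Sham libraries lie between 180 and 372 CPM of mural markers and Glenn libraries between 542 and 1850, and the Glenn library farthest right has the highest Prkg1 (7.2 CPM) and Gucy1b1 (41.9 CPM).

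Vitamin A in the diet was compared within each surgery. With edgeR, 0 of the 9 genes passed in any of the 6 diet comparisons. In sham cells, deficient against control diet called 0% of all genes, excess against control 0.241% and excess against deficient 0.0124%. In Glenn cells the shares were 0.00618%, 1.47% and 0% in the same order. At an unadjusted p under 0.05 the 9 genes gave 0, 2 and 0 in sham cells (5.22%, 11.1% and 5.28% of all genes) and 1, 2 and 0 in Glenn cells (9.88%, 13.9% and 5.18%), and limma voom and DESeq2 also called 0 of 9 in each. The Nos3 level in Glenn cells was 0.48 higher on the log2 scale on the deficient than on the control diet (SE 0.155; edgeR adjusted p = 0.299), with 4 of 5 deficient libraries above every control one, and 0.46 higher on the excess diet (SE 0.165; adjusted p = 0.165). Npr2 in Glenn cells differed by 0.24 between the excess and control diets (SE 0.115; edgeR adjusted p = 0.33). In sham cells Gucy1b1 and Gucy1a1 had log2 differences of -0.60 and -0.45 between the excess and control diets (SE 0.228 and 0.218; edgeR adjusted p = 0.297 and 0.443). The excess sham group holds RT1-CE16-low libraries only. Whether the surgical change differed between diets was tested by an interaction term, which 0 of 9 genes passed, where 0.00618% of all genes did; 0 of 9 had an unadjusted p under 0.05, against 5.72% of all genes. For Nos3 the surgical change on the control diet was exceeded by 0.40 on the deficient and by 0.49 on the excess diet (edgeR adjusted p = 0.917 over both terms). These tests do not show that the diets act alike.

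The wider pathway was read through 70 further listed gene symbols, of which 68 were in the table and 61 were tested. In the averaged comparison 26 were higher in Glenn cells, 11 were lower and 24 were not called, where 23.4% of all tested genes were higher and 24.7% lower; the median log2 change was 0.16, against -0.01 over all tested genes. On the control diet 14 were higher and 7 lower (11.8% and 13.1% of all genes), on the deficient diet 15 and 5 (13.7% and 13.7%) and on the excess diet 14 and 3 (11.6% and 10.4%). The counts by list that follow are from the averaged comparison and stand beside the same 23.4% higher and 24.7% lower over all genes.

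Among 25 genes of nitric oxide synthesis and supply, 12 were higher and 2 lower, the latter Nosip and Spr, with a median log2 change of 0.20. Nos2, the inducible nitric oxide synthase, had 1.43 to 5.42 CPM in the 15 sham libraries (median 2.02) and 10.3 to 39.9 CPM in the 15 Glenn libraries (median 31.2). These did not overlap, as was so for 5.83% of all tested genes. The log2 change of Nos2 was 3.52 (SE 0.181, edgeR adjusted p = 4.97e-15), and 3.97, 3.23 and 3.35 on the control, deficient and excess diets. Ddah1, which clears the synthase inhibitor asymmetric dimethylarginine, rose by 0.55 on the log2 scale, from 84.2 ± 13.5 to 119 ± 27.5 CPM (SD, n = 15 each; edgeR adjusted p = 4.97e-07). The arginine transporter Slc7a2 rose by 1.13 on the log2 scale from a mean of 0.795 CPM, and the neuronal synthase Nos1 by 1.99 from 0.118 CPM (edgeR adjusted p = 0.000212 and 0.00227). In the RT1-CE16-low libraries alone both calls were lost, with changes of 0.68 for Slc7a2 (edgeR adjusted p = 0.0844) and 2.10 for Nos1 (0.0503); over 10 settings the adjusted p began at 2.66e-06 and 3.4e-05. Cav1, a caveolar protein that holds Nos3 inactive, had 2170 and 2310 CPM in sham and Glenn cells (log2 change 0.08, edgeR adjusted p = 0.175). Gch1, needed for the cofactor tetrahydrobiopterin, had a log2 difference of -0.21 (edgeR adjusted p = 0.0796), Ddah2 one of 0.66 (adjusted p = 0.0754) and Arg2 one of -0.02 (adjusted p = 0.946); these 3 did not pass. Other settings called Cav1 in 2 of 10 (adjusted p from 0.00948 to 0.327), Gch1 in 2 of 10 (0.0179 to 0.31) and Ddah2 in 3 of 10 (0.0105 to 0.257). Leaving out sham control replicate 3 or 5 or Glenn control replicate 2 also brought a call for Gch1 (edgeR adjusted p = 0.0433, 0.0309 and 0.044). For Ddah2 the same held of sham deficient replicate 5, sham excess replicate 1 and Glenn deficient replicate 2 (0.031, 0.00786 and 0.0468).

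Of 15 listed cyclases, peptides and processing enzymes, 9 were tested; Furin and Gucy2d were higher and Mme and Gucy2g lower, named here after their values were seen, so that 4 of 9 were called where 48.2% of all genes were. Atrial and brain natriuretic peptides were near the limit of detection: Nppa had counts in 9 of 30 libraries with at most 20, and Nppb in 15 with at most 11. Nppc, the C-type peptide, had 0.572 CPM in sham and 0.535 CPM in Glenn cells (log2 change -0.04, edgeR adjusted p = 0.903). Mme, or neprilysin, which degrades natriuretic peptides, went from 109 to 62.8 CPM (log2 change -0.76, SE 0.126; edgeR adjusted p = 1.46e-05). The alternative cyclase subunit Gucy1a2 had 0.604 and 0.837 CPM (log2 change 0.49, edgeR adjusted p = 0.157; 0.72 and 0.021 without sham control replicate 4), and Gucy1b2 reached at most 19 counts and was not tested.

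Of 12 phosphodiesterases and export pumps, 4 were higher (Pde1a, Pde1c, Pde2a and Pde10a) and 4 lower (Pde3a, Pde6d, Pde9a and Abcc5), 8 of 12 in all where 48.2% of all genes were called. Pde2a, a phosphodiesterase that cGMP itself stimulates, had 31.3 to 50.8 CPM in sham (median 38.9) and 79.6 to 135 CPM in Glenn libraries (median 93.5), without overlap, and rose by 1.32 (SE 0.0773; edgeR adjusted p = 3.07e-14). Pde9a, which is specific for cGMP, had 63.8 to 98.5 CPM in sham (median 80.8) and 19.8 to 56.7 CPM in Glenn libraries (median 34.5), also without overlap. Its log2 change was -1.07 (SE 0.0912, edgeR adjusted p = 9.94e-11). Sham and Glenn libraries did not overlap for 5.83% of all tested genes. Pde3a, which cGMP inhibits, had 29.7 ± 3.84 CPM in sham and 18.8 ± 2.37 CPM in Glenn libraries (SD, n = 15), a log2 change of -0.68 (edgeR adjusted p = 2.43e-09). Pde1a rose by 2.19 from 0.993 CPM and Pde10a by 1.38 from 1.13 CPM (edgeR adjusted p = 3.15e-07 and 4.55e-06).

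Of 18 listed symbols of kinase genes and targets, 15 were tested. Among these 8 were higher and 3 lower, the latter Irag2, Ppp1r12c and Rgs2, with a median log2 change of 0.16. Irag1, a kinase G substrate that dampens calcium release, rose by 1.40 on the log2 scale, from 11.4 ± 3.03 to 29.2 ± 12.5 CPM (SD, n = 15 each; edgeR adjusted p = 5.88e-07). Kcnmb1, the smooth muscle subunit of the BK potassium channel, rose by 3.14 from 0.338 CPM and Trpc6, a cation channel, by 1.06 from 0.71 CPM (edgeR adjusted p = 5.59e-10 and 0.000179). Prkg2, the other kinase G gene, had at most 12 counts in 17 libraries and was not tested. Irag1, Kcnmb1 and Pde1a were higher in Glenn cells, as Prkg1 and the mural markers were. Their correlation with the mural markers was not computed, and the part of those markers was not tested.

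**Figure D4:**
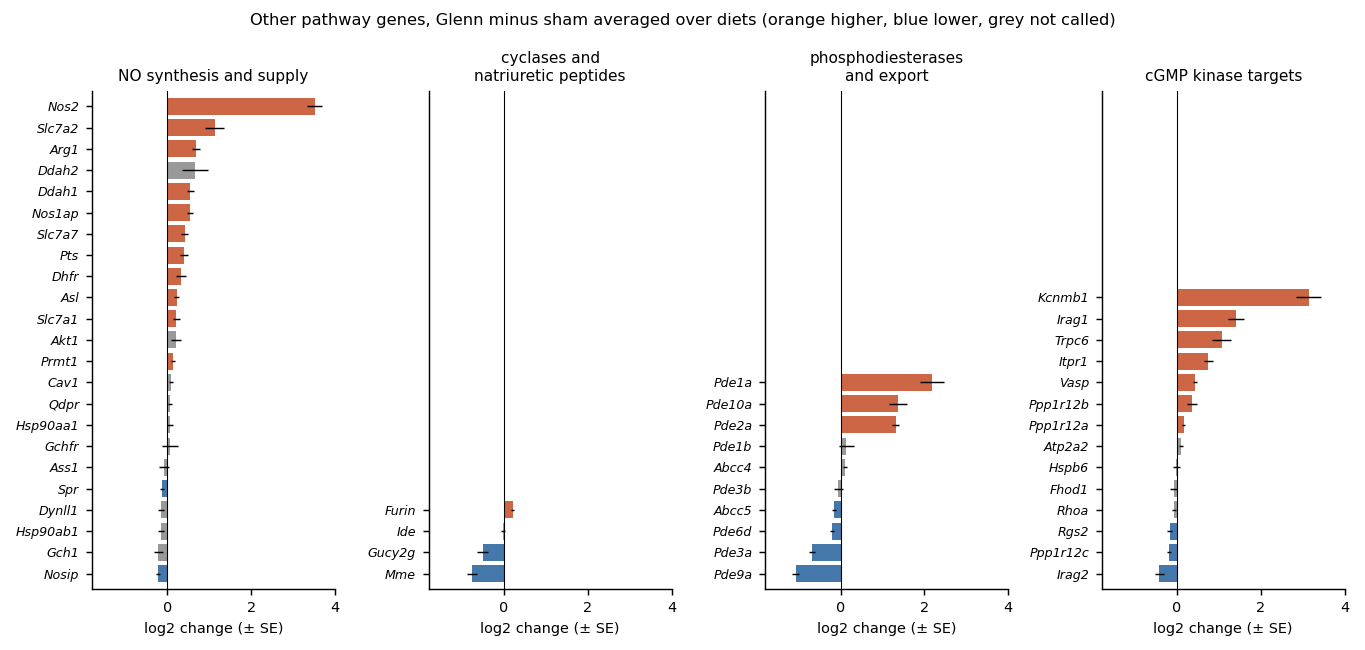
Fitted log2 change from sham to Glenn averaged over diets (horizontal axes, bars from 0, ± SE) for the other listed pathway genes whose mean reached 1 CPM, in 4 lists; orange bars were called higher, blue bars lower and grey bars were not called by edgeR. Nos2 (3.52) and Kcnmb1 (3.14) have the longest bars to the right and Pde9a (-1.07) the longest to the left.

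**Figure D5:**
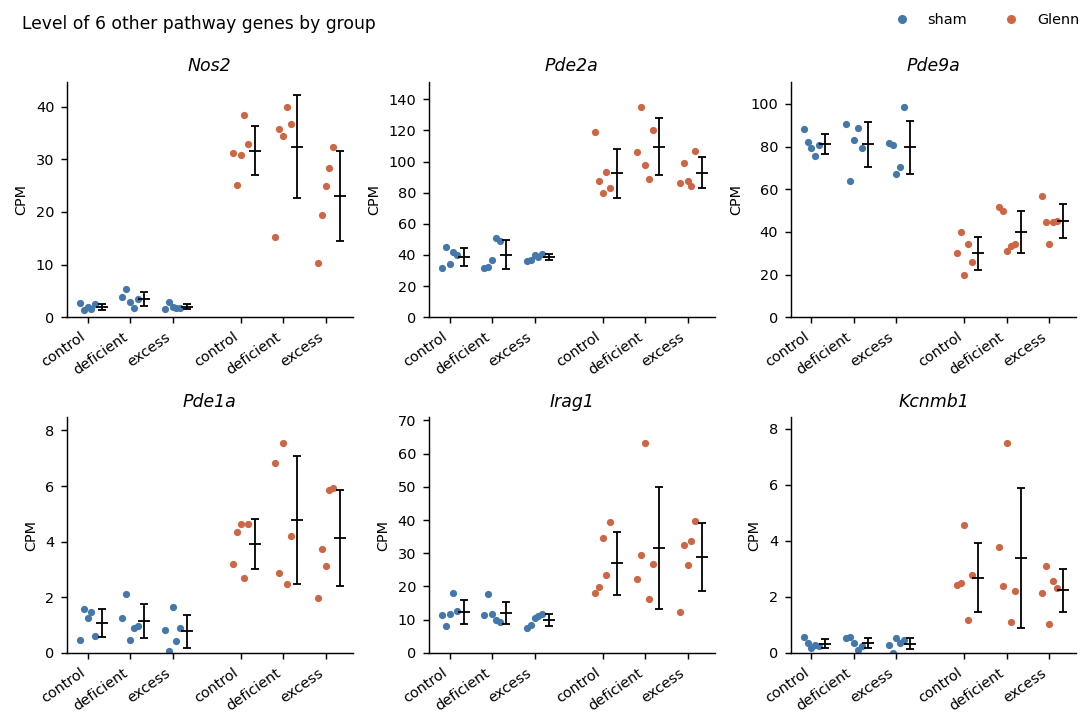
Level of Nos2, Pde2a, Pde9a, Pde1a, Irag1 and Kcnmb1 in CPM (vertical axes, from 0) in the 6 groups, with 1 point per library and the mean ± SD of 5 libraries. Nos2 and Pde2a in Glenn libraries lie above, and Pde9a below, every sham library.

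In the diet comparisons 3 of the 61 further genes passed, all in Glenn cells between the excess and control diets, where 1.47% of all genes passed. Ddah1 was higher on the excess diet (137 against 108 CPM; log2 change 0.58, SE 0.139, edgeR adjusted p = 0.0308). Pde9a was higher too (45.1 against 29.9 CPM; 0.70, SE 0.172, edgeR adjusted p = 0.0364). Pde1b, named after its values were seen, was lower (8.56 against 14.6 CPM; -1.45, SE 0.354, edgeR adjusted p = 0.0345). All 3 calls were lost without the series term (edgeR adjusted p = 0.439, 0.155 and 0.447 in the order given), and without Glenn excess replicate 1 (0.288, 0.298 and 0.206), Glenn excess replicate 2 (0.0666, 0.0728 and 0.137), Glenn control replicate 4 (0.0903, 0.0617 and 0.113) or Glenn control replicate 5 (0.105, 0.115 and 0.0823). Glenn control replicate 3 ended the calls for Ddah1 (0.0807) and Pde9a (0.0934), Glenn excess replicate 4 that for Pde9a (0.0627), and Glenn excess replicate 5 those for Pde9a (0.0553) and Pde1b (0.0617). Over 12 other settings the adjusted p ran from 0.0063 to 0.6 for Ddah1, from 0.00606 to 0.326 for Pde9a and from 0.00135 to 0.447 for Pde1b. The call was lost in 7 of these 12 settings for Ddah1, in 8 for Pde9a and in 8 for Pde1b. The control-diet Glenn libraries belong to 1 series, so part of this comparison rests on the fitted series difference.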

How the data were processed

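RNA of microbead-sorted CD31-positive lung cells was sequenced in 30 libraries made with a low-input SMART-Seq kit, per the labels' protocols. The authors deposited estimated counts for each gene from Salmon, as the name of the table states; 13.6% of them were not whole. FastQC, Trim Galore, STAR, Salmon and Picard, and the builds mRatBN7.2 and rn7, are named in the submitters' processing notes. The annotation release, tool versions and strandedness are not given in the sources used here. Salmon shares out reads of near-identical genes by estimate. The 30562 rows all carried a gene name, and 0 sample columns were left out.

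Estimated counts were rounded and filtered in edgeR 4.0.16 by filterByExpr with a count minimum of 10 and a total minimum of 15, leaving 16171 genes, and scaled by TMM. A quasi-likelihood fit (estimateDisp, glmQLFit with robust set, glmQLFTest) in R 4.3.3 held all 30 libraries, with 6 group means and the library series, read from the library numbers, as an additive term. P-values were adjusted over all 16171 genes as Benjamini and Hochberg describe, and values under 0.05 are calls. Standard errors are the log2 change over the square root of F. Total counts of 22 to 77.6 M per library limit the precision of low genes. Pairs of libraries within a group (60) had a chi-square per degree of freedom of 20.2 to 119.9, far above sampling noise. On simulated counts for the averaged comparison (15987 genes), edgeR recovered 74 of 100 genes changed by 0.5 and 84 of 100 changed by 1 on the log2 scale, with 3 false calls. The counts were drawn from the fitted spread with no series, RT1-CE16 or sex effect. Far fewer genes were changed in them than the 48.2% called in the data. These figures therefore do not give the rate of false calls in the data.

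The 9 genes, the pathway and marker lists and the tests were chosen with earlier results of these data known. Besides the 9 genes, the text names preset genes, every listed gene with a mean of at least 1 CPM, a call and an absolute log2 change of at least 1 in the averaged comparison, the 3 genes most like each of the 9, and up to 2 markers per cell type. Listed genes outside these rules were named after their values were seen. They are Nosip, Spr, Furin, Mme, Gucy2d, Gucy2g, Pde1b, Pde1c, Pde6d, Abcc5, Irag2, Ppp1r12c and Rgs2. Alternatives were other terms and subsets for series, RT1-CE16 level (split at 100 CPM) and sex, DESeq2 size factors, DESeq2 1.42.0, limma 3.58.1 voom with quality weights, no filter, only the groups compared, a replicate block and each library left out. Residual correlations used log2 CPM with a prior count of 2. Sequences came from RefSeq, GRCr8; figures were drawn with matplotlib 3.10.9.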

Additional observations from a re-analysis of the deposited data

Results flagged for a closer look

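In 12 of 162 sets of 5 libraries (1 gene in 1 group), the highest or lowest library stood apart from the others by more than Dixon's limit, where chance gives about 8.1. The gap is given as a share of the range of the group. Among the 9 genes, Pde5a in sham excess replicate 4 was flagged, at 11.8 CPM against 8.39 to 9.27 in the others (gap 0.742). Ddah1 stood high in Glenn control replicate 1 (147 against 91.4 to 104 CPM, gap 0.773) and in Glenn deficient replicate 1 (147 against 100 to 112, gap 0.745). Ddah2 was high in sham excess replicate 1 (6.92 against 0.899 to 2.52, gap 0.731) and Gch1 in sham deficient replicate 2 (66.6 against 38.8 to 44.1, gap 0.809). Nos2 was low in Glenn deficient replicate 1 (15.2 against 34.4 to 39.9, gap 0.777). Nos1 was high in sham control replicate 5 (0.338 against 0.0486 to 0.0871, gap 0.867) and Gucy1a2 in sham control replicate 4 (1.51 against 0.265 to 0.436, gap 0.863). Irag1 was high in Glenn deficient replicate 3 (63.3 against 16.3 to 29.4, gap 0.721), the library with the highest summed mural markers. Pde3a was high in Glenn control replicate 2 (25.2 against 16.3 to 17.9, gap 0.82). Pde10a was high in sham deficient replicate 4 (2.62 against 0.491 to 1.04, gap 0.742) and sham excess replicate 1 (1.98 against 0.673 to 0.954, gap 0.785).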

How the results depend on the processing

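Same-numbered sham and Glenn libraries of a diet were little alike. Their residual correlations ran from -0.182 to 0.177, with 4 of 15 over 0.1, and 4 of 15 libraries matched their own number best. The numbers still carried structure: in every group replicate 1 was RT1-CE16-low and scored male, and replicate 2 was RT1-CE16-low and scored female. All of these libraries were in the larger series. A replicate block therefore cannot be fully told apart from RT1-CE16 level, series and sex. With a replicate block 8 of the 9 genes were called in the averaged comparison in place of 5, adding Gucy1a1 (0.29), Npr2 (0.14) and Npr3 (-0.44). Over 10 settings, this block among them, averaged calls over all genes ran from 5354 to 8192 of 16171 (7792 as reported). The all-gene count for the block alone is not given here. The block also reversed the sign of Pde5a on the excess diet (0.0859) and Arg2 (0.0078). The 13 RT1-CE16-high libraries were fitted alone, a subset chosen after seeing the data like that of the low libraries. There 2 of the 9 genes were called on the control diet in place of 4, without Nos3 (0.55) and Prkg1 (0.64). Over 12 settings calls over all genes on that diet fell as low as 1563, from 4023 as reported. The all-gene count for this subset is not given here, and the part of its fewer libraries was not tested. Gucy1a1 (-0.19) and Gucy1b1 (-0.00838) reversed sign on the deficient diet in the RT1-CE16-high libraries. In the RT1-CE16-low libraries alone, Gucy1b1 (-0.000875) and Npr2 (0.00892) reversed sign on the control diet, Npr3 (0.0561) on the excess diet, and Arg2 (0.0511) and Nppc (0.0785) in the average. Npr3 on the excess diet also reversed sign in series A alone (0.0563), which holds the same libraries of that diet. Npr3 did so too with only the groups compared (0.0515), and Arg2 in series A alone (0.0515) and with voom (0.0753). With 1 library left out, the count of called genes among the 9 stayed at 4 on the control diet. It ran from 4 to 6 on the deficient diet, 4 to 5 on the excess diet and 4 to 6 in the average. Calls over all genes then ran from 3392 to 3957, 3676 to 4213, 2865 to 3575 and 7481 to 7798 in the same order. Values that reversed sign there were Arg2 (-0.123 to 0.143), Nppc (-0.113 to 0.0449), Gucy1a1 (-0.109 to 0.181) and Gucy1b1 (-0.0933 to 0.105) on the control diet and Pde5a (-0.203 to 0.0383) on the excess diet; none of these values had been called. Over the other settings the counts over all genes ran from 1563 to 4417 on the control diet (4023 as reported), 2336 to 4792 on the deficient (4423) and 1960 to 4370 on the excess diet (3549). For the excess against the control diet they ran from 10 to 531 in Glenn cells (237) and 0 to 210 in sham cells (39), and 2 to 557 and 0 to 79 with 1 library left out, so the background share of diet calls depends on the setting and on Glenn excess replicate 1 and Glenn control replicate 1, which gave the 2 and the 557. For the deficient against the control diet they ran from 1 to 63 in Glenn cells (1) and 0 to 19 in sham cells (0), for the excess against the deficient diet from 0 to 6 (0) and 0 to 12 (2), and for the interaction from 0 to 35 (1). None of these settings called any of the 9 genes in a diet comparison or the interaction. The causes were not tested. Depth limits Prkg1, Nos1, Nppc and the other genes near or under 1 CPM.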

Other observations

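Markers of several other cell types moved with surgery in the averaged comparison. Over all tested genes 23.4% were higher and 24.7% lower. Aerocyte capillary markers, of the capillary cells that line the gas exchange surface, were lower in 4 and higher in 1 of 6, with a median log2 change of -1.43, and Car4 (-1.92) and Prx (-1.79) were among the lower ones. Lymphatic markers were higher in 6 of 6, fibroblast markers in 6 of 7, and arterial markers higher in 5 and lower in 2 of 7. Venous markers were higher in 2 and lower in 3 of 6 and type 1 alveolar markers higher in 4 and lower in 1 of 5. Of 4 leukocyte markers tested 1 was higher and 1 lower, and of 4 platelet and erythroid markers 1 was higher and 3 lower. General capillary markers were lower in 5 of 6, endothelial markers lower in 5 and higher in 2 of 8, and alveolar type 2 markers lower in 6 of 6. Nos3 was higher in Glenn cells while the summed endothelial markers ran from 8580 to 10700 CPM in sham and from 6330 to 8900 CPM in Glenn libraries. The part of these shifts in the values of the 9 genes was not tested.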
